A study of Rattus norvegicus with 6 samples.

Results

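The genes of plasma protein transfer and of the endocytic receptors that bind plasma proteins were followed through the development of the rat choroid plexus. They are 10 genes of 14217 with a probe set of their own on the array. They were chosen by name: the plasma proteins albumin (Alb), alpha-fetoprotein (Afp) and fetuin-A (Ahsg), the albumin-binding protein SPARC (Sparc), the receptors Lrp1, Lrp2, Cubn and Vldlr, the adaptor Dab2 and the recycling receptor Fcgrt. A gene is represented by its brightest probe set over the 6 arrays, among probe sets annotated to a single gene, and other probe sets of the gene serve as a check. Of the 10 genes, 6 passed the filter on low intensity and were tested, among 10334 genes tested in all.

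Sprague-Dawley rats were sampled at embryonic day 19 (E19), at postnatal day 2 (P2) and as adults. The plexuses of the lateral ventricle were taken, and RNA of 2 pools per stage was hybridized to Affymetrix Rat Genome 230 2.0 arrays. The labels name no treatment or transgene, and the adult plexus served as the reference for both young stages. Each pool held plexuses of several animals, in batches of 6 to 10 plexuses according to the labels and from fewer rats per adult pool than per young pool according to the methods, so that differences between animals were averaged within a pool. The methods name adult males, and the sex of the fetuses and pups is not given in the sources used here, so that age and sex cannot be told apart. The dissected tissue held the epithelium together with its stroma and vessels. In such a sample fewer cells of a type and less RNA per cell cannot be told apart.

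The fetal cerebrospinal fluid (CSF) is rich in plasma proteins, and the choroid plexus epithelium is a known route for their passage from blood. Albumin, alpha-fetoprotein and fetuin-A are made mainly by the liver, and SPARC, a secreted matrix protein, binds albumin. Lrp1, Lrp2 (megalin) and Vldlr belong to the LDL receptor family and take up many ligands by clathrin-mediated endocytosis, cubilin (Cubn) binds albumin and works with megalin, Dab2 links the tails of such receptors to the clathrin coat, and the neonatal Fc receptor (Fcgrt) returns albumin and IgG from endosomes.

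Probe sets that reached 100 units, taken as the level of background, made up 50.02% to 53.5% of those on an array, and the pools of a stage differed by a median factor of 1.07 to 1.10. Of 10 markers of choroid plexus epithelium, 9 reached 100 units on at least 1 array, and Kcnj13 stayed under it on all. Their sums were 80424 and 82853 units at E19, 85828 and 81819 units at P2, and 108371 and 103829 units in the adult. Of 9 tested, 2 were higher and 3 lower at E19, and 0 were higher and 3 lower at P2. The summed markers of fibroblasts were 23970 and 24002 units at E19, 29753 and 26801 units at P2, and 9387 and 10089 units in the adult, and those of endothelium were 11877 and 11139 units at E19, 11155 and 10984 units at P2 and 2211 and 2159 units in the adult. The ratio of 3' to 5' signal of β-actin, a measure of RNA integrity and labelling, was 2.95 and 2.93 in the E19 pools, 2.54 and 2.09 in the P2 pools and 4.58 and 5.34 in adult pools, whereas that of GAPDH stayed between 1.12 and 1.23. The part of these differences in the results was not tested.

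At E19, 3 of the 6 tested members passed the test against the adult (limma, Benjamini-Hochberg adjusted p under 0.05 over all 17808 tested probe sets), 2 higher (Sparc and Lrp2) and 1 lower (Dab2). Over all tested genes 56.6% were called, 31.4% higher and 25.2% lower. At P2, 4 of the 6 passed, 2 higher (Lrp2 and Fcgrt) and 2 lower (Lrp1 and Dab2), where 50.7% of all genes were called, 28.8% higher and 21.8% lower. Between P2 and E19, Fcgrt was higher and Lrp2 lower at P2, where 6.17% of all genes were called, 3.61% higher and 2.56% lower. The median log2 difference of the 6 members was -0.17 at E19 and 0.29 at P2 against the adult, beside 0.04 and 0.05 over all tested genes. Against the adult, the counts of members lie near the shares over all genes and are no result about the members as a group. The p-values measure the spread between pools of animals. All 6 tested members had stage means above 100 units at each of the 3 stages, so that none was tested through a single stage alone.

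**Figure D1:**
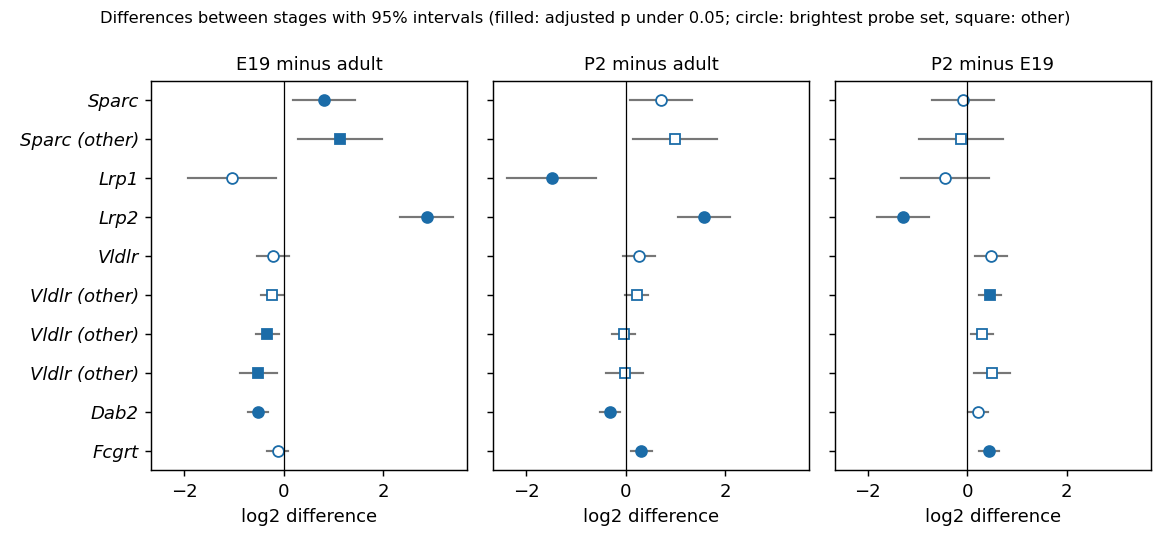
Log2 differences of MAS5 intensity for E19 minus adult, P2 minus adult and P2 minus E19 (horizontal axes), for the 6 tested members and their other tested probe sets (rows). Bars are 95% intervals from limma, filled symbols passed at an adjusted p under 0.05, and the difference of Lrp2 between E19 and adult, 2.87, is the farthest from 0.

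The mRNAs of the 3 plasma proteins were not detected above background at any stage. Alb was listed at 3.86 and 19.4 units at E19, at 4.32 and 4.51 units at P2 and at 24.3 and 14.3 units in the adult, all under 100 units, and its other probe set ranged from 2.69 to 13.1 units. Afp, the major fetal serum protein, was listed at 3.90 and 3.22 units at E19, at 26.4 and 4.88 units at P2 and at 4.71 and 14.9 units in the adult. Ahsg was listed at 24.0 and 26.8 units at E19, at 30.7 and 13.7 units at P2 and at 36.1 and 14.9 units in the adult. Such intensities have no order, the adult pools overlapped those of at least 1 young stage for each gene, and no fold change is given. Of their relatives that the liver also secretes, Afm, next to Afp on chromosome 14, and Fetub, next to Ahsg on chromosome 11, stayed under 100 units on all 6 arrays.

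The promoter windows of Alb and Afp are shown because these neighbouring genes lay under background together, and that of Lrp2 because it moved the most. Each holds the 200 bases before the RefSeq start of the gene, from GRCr8, minus strand, printed 5' to 3' along the gene: Alb at chr14:17906980-17907179, Afp at chr14:17875646-17875845 and Lrp2 at chr3:74754536-74754735. Capitals mark GTTAAT, an arm of the palindrome bound by the liver factor HNF1, in Alb and Afp, and GGGCGG, the GC box, in Lrp2.
Alb: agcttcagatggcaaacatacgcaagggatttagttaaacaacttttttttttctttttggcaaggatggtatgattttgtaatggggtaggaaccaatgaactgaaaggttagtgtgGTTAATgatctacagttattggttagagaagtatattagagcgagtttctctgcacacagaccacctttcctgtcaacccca
Afp: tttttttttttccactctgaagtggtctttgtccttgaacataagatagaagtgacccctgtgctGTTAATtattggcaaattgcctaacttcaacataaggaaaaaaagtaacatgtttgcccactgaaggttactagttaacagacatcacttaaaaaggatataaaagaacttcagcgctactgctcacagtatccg
Lrp2: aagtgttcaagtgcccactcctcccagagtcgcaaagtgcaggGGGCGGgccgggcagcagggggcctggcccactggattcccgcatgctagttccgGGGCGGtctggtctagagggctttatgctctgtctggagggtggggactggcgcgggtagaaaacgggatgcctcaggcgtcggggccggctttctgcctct
GTTAAT, searched on both strands (reverse complement ATTAAC), starts 82 bases before the start of Alb and 135 bases before that of Afp, and it was not found in these windows of the other 8 members. Of 33469 promoters in the table, 5.12% hold it in this window. GGGCGG (reverse complement CCGCCC) starts 157 and 102 bases before the start of Lrp2, was found also in Vldlr, and is held by 28.6% of promoters. The motifs do not overlap, and a match is a description of these letters alone.

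**Figure D2:**
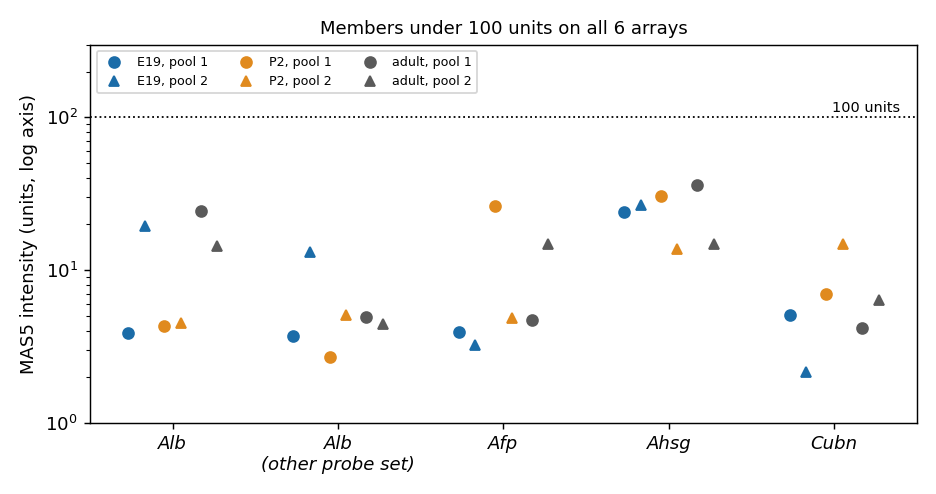
MAS5 intensity in units on a log axis (vertical) for the members under 100 units on all 6 arrays, by gene (horizontal), with circles for pool 1 and triangles for pool 2 of each stage. All points lie under the dotted line at 100 units, the highest being Ahsg in adult pool 1 at 36.1 units.

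Other proteins that the liver secretes were mostly under background as well. Of 25 such genes with a probe set, 20 had a mean under 100 units at every stage. Over all tested genes of the array 31.4% were higher at E19 and 28.8% at P2. Among the 5 of this list that were tested, 4 were called higher at E19 and 3 at P2, all with both adult pools under 100 units. A gene that passes the filter only through its young stages had to differ. With 1 array left out, 2 to 3 were higher at each young stage. With such genes at their bounds, the median log2 difference of the list was 0.68 at E19 and 0.94 at P2. The Rbp4 call was lost at E19 on leaving out any E19 or P2 pool, and at P2 on leaving out either P2 pool. The Apoc3 call at E19 was lost on leaving out any E19 or adult pool. Fgg, the fibrinogen gamma chain, had 647 and 637 units at E19, 415 and 259.7 units at P2 and 80.4 and 60.4 units in the adult, a rise of at least 6.42-fold for E19 over adult and of at least 3.28-fold for P2 over adult (adjusted p = 0.000627 and 0.00231, limma). Its stages did not overlap and were ordered by age, although P2 and E19 did not pass (log2 -0.97, adjusted p = 0.0890). Serpina1, alpha-1-antitrypsin, was at least 1.65-fold and 1.92-fold higher at E19 and P2. Of 13 hepatocyte markers, 12 were under 100 units on all arrays, Fgg being the exception. Ttr, transthyretin, which the choroid plexus makes itself, had log2 differences from the adult of -0.01 at E19 and -0.16 at P2 and did not pass at either stage. Afm and Gc, carriers of vitamin E and vitamin D, were under 100 units throughout.

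Sparc, the matrix protein that binds albumin, stood higher at E19 than in the adult. It had 11936 and 11652.5 units at E19, 11357 and 10815 units at P2, and 5224 and 8702 units in the adult. All 4 young pools exceeded both adult pools, which lay far apart, by a log2 difference of -0.74 (pool 1 minus pool 2), where 2.00% of the probe sets were further apart. The log2 difference from the adult was 0.81 at E19 (SE 0.24, 1.75-fold, adjusted p = 0.0392) and 0.72 at P2 (SE 0.24, 1.64-fold, adjusted p = 0.0597, limma). The P2 difference missed the threshold, and no difference between P2 and E19 was detectable (log2 -0.09, 95% interval -0.71 to 0.53). Its other probe set gave log2 differences of 1.12 and 1.00 at E19 and P2, with adjusted p = 0.0364 and 0.0552.
The E19 call was lost on leaving out any E19 or P2 pool (adjusted p = 0.0719 to 0.133). Leaving out adult pool 1 gave a log2 difference of 0.44, and leaving out adult pool 2 gave 1.17. After median centring of the arrays the difference of 0.53 did not pass (adjusted p = 0.135). Without adult pool 2 the P2 difference was 1.08 and passed (adjusted p = 0.00397). The fibroblast markers were also lower in adult pool 1 than in adult pool 2 for 8 of 9 genes (median log2 -0.25), and their part in the Sparc result was not tested.

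Relatives of SPARC, secreted proteins that share domains with it, were counted beside it. Of 4 tested genes, 3 were higher at E19 and 4 at P2, beside 31.4% and 28.8% of all tested genes. Among the 4, Spock3 and Smoc2 reached a mean of 100 units at only 1 stage. A gene that passes the filter only through the stage where it is high had to differ there. At P2, 1 of the 4 lay under 100 units both at P2 and in the adult, so that its call rests on values under background. The median log2 difference was 1.41 at E19 and 1.35 at P2, with genes at their bound and those under 100 units in both stages left out. Fstl1 had 9223 and 9596 units at E19, 9296 and 8774 units at P2, and 3559.8 and 3537 units in the adult, 2.65-fold and 2.55-fold higher (adjusted p = 0.000277 and 0.000408). Sparcl1 was higher by a log2 difference of 1.63 at E19 and 1.69 at P2, its P2 pools had 2099 and 737 units, and both calls were lost on leaving out any E19 or adult pool (the P2 difference ran from 0.93 to 2.44 over the 6 arrays left out). Fibroblast marker genes were higher in 8 of 10 at both young stages, and their part in the shift of these genes was not tested.

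Lrp2, or megalin, the large scavenging receptor of absorptive epithelia, had the largest difference of all tested members, and its level was ordered by age. It had 1067 and 1001 units at E19, 519.7 and 342 units at P2, and 138 and 145 units in the adult. The 3 stages did not overlap, and the adult values lay just above the background of 100 units. Lrp2 was 7.31-fold higher at E19 than in the adult (log2 2.87, SE 0.21, 95% interval 2.34 to 3.40, adjusted p = 0.000457) and 2.98-fold higher at P2 (log2 1.58, 95% interval 1.05 to 2.10, adjusted p = 0.00342). It was 2.45-fold lower at P2 than at E19 (log2 -1.29, 95% interval -1.82 to -0.77, adjusted p = 0.0362, limma).
Both calls against the adult held whichever array was left out, with log2 differences of 2.82 to 2.92 at E19 and 1.27 to 1.88 at P2. The call between P2 and E19 was lost whichever array was left out (log2 -1.60 to -0.99). Without an E19 or P2 pool almost no probe set of the array passed this comparison, so that the loss there is not particular to Lrp2. Without either adult pool the count of called probe sets fell only in part. The Lrp2 call was lost there too, with its difference still at -1.29. The P2 pools stood apart by a log2 difference of 0.60, where 4.15% of probe sets were further apart.

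**Figure D3:**
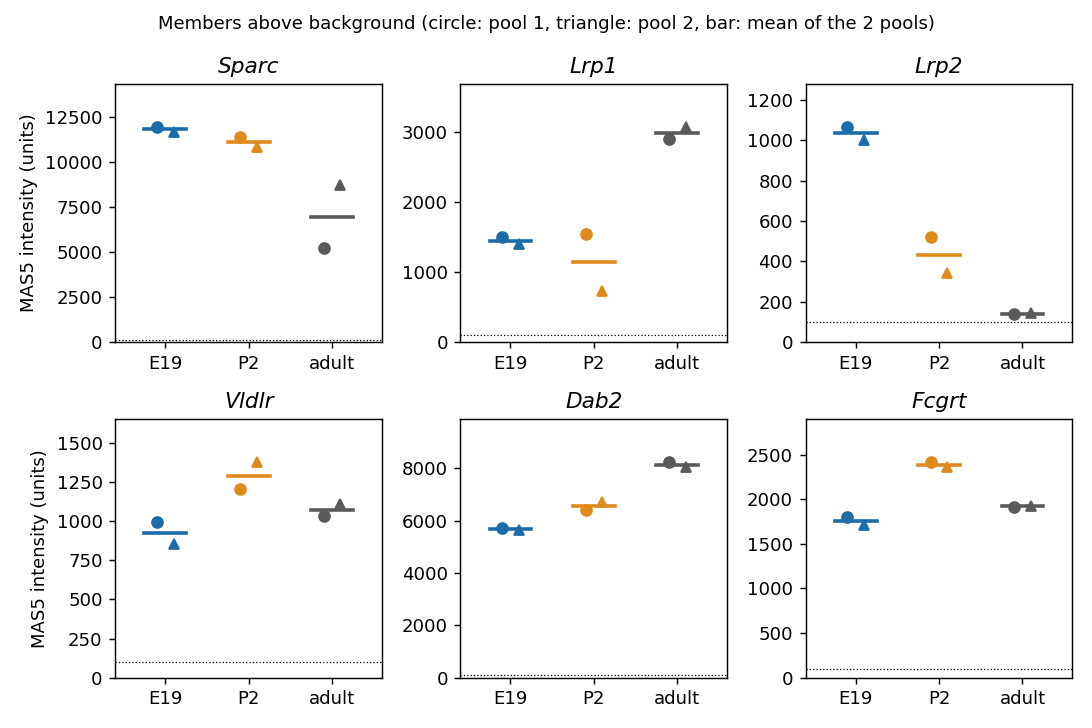
MAS5 intensity in units (vertical, from 0) by stage (horizontal) for the 6 members above background, with a circle for pool 1, a triangle for pool 2 and a bar at the mean of both. Lrp2 lies above 1000 units at E19 and near 140 units in the adult, and the dotted line marks 100 units.

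Cubilin, which cooperates with megalin in the kidney, was under background at every stage. Cubn was listed at 5.04 and 2.16 units at E19, at 6.93 and 14.9 units at P2 and at 4.14 and 6.33 units in the adult. The E19 and adult pools overlapped, and no fold change is given. Its membrane partner amnionless (Amn) was also under 100 units on all arrays, between 60.6 and 93.4 units. The receptor-associated chaperone Lrpap1, which guides LDL receptor family members through the secretory pathway, had 3914 and 4263 units at E19, 3974.5 and 3829 units at P2, and 4027 and 3669 units in the adult, and did not pass at either stage (log2 0.09 and 0.02).

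Lrp1, a receptor for alpha-2-macroglobulin and lipoproteins, was lower at P2 than in the adult, in the opposite direction to Lrp2. It had 1503 and 1395 units at E19, 1551 and 733 units at P2, and 2908 and 3076 units in the adult. Neither young stage overlapped the adult, and P2 pool 2 lay below all others, with a log2 gap of 1.08 between the P2 pools that 0.546% of probe sets exceeded. The P2 level was 2.80-fold below the adult level (log2 -1.49, SE 0.35, 95% interval -2.37 to -0.60, adjusted p = 0.0202) and the E19 level was 2.07-fold below it (log2 -1.05, 95% interval -1.93 to -0.16, adjusted p = 0.0523, limma), which missed the threshold. The P2 and E19 levels were not told apart (log2 -0.44, 95% interval -1.33 to 0.45, adjusted p = 0.460). The P2 difference was -2.03 without P2 pool 1 and -0.95 without P2 pool 2, the call ended without either adult pool (adjusted p = 0.0617 and 0.0714), and the E19 difference passed without either P2 pool (adjusted p = 0.00312) and with each array centred on its median (log2 -1.32, adjusted p = 0.0176). The difference between P2 and E19 was 0.10 without P2 pool 2.
Macrophage markers were higher in P2 pool 1 than in P2 pool 2 for 8 of 10 genes (median log2 0.40), with sums of 6325 and 4866 units, beside 3802 and 3753 units at E19 and 8194 and 8132 units in the adult. The sums do not stand for most of these markers. Against the adult, 2 were higher and 2 lower at E19, and 6 were higher and 1 lower at P2. Fibroblast markers were higher in P2 pool 1 than in P2 pool 2 for 6 of 10. Their part in the Lrp1 result was not tested. The other probe set of Lrp1 lay between 9.80 and 40.2 units.

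Vldlr, the receptor for triglyceride-rich lipoproteins and reelin, did not pass in any comparison on its brightest probe set. That probe set had 997 and 853 units at E19, 1204 and 1377 units at P2, and 1033 and 1109.9 units in the adult. The E19 pools were the lowest and the P2 pools the highest, without overlap. The log2 difference from the adult was -0.22 at E19 (95% interval -0.54 to 0.10, adjusted p = 0.198) and 0.27 at P2 (95% interval -0.05 to 0.59, adjusted p = 0.135), and from E19 it was 0.48 at P2 (95% interval 0.16 to 0.80, adjusted p = 0.0838). The other 3 probe sets gave -0.24, -0.33 and -0.51 at E19 against the adult, of which the last pair passed (adjusted p = 0.0281 and 0.0316), and 0.22, -0.04 and -0.02 at P2, none passing. For P2 minus E19 all 4 gave a positive difference, of 0.30 to 0.49, and 1 passed (adjusted p = 0.0475). With each array centred on its median the brightest probe set was lower at E19 (log2 -0.49, adjusted p = 0.0342).

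Dab2, the endocytic adaptor, was lower at both young stages by a small margin. It had 5707 and 5627 units at E19, 6427 and 6723 units at P2, and 8240 and 8045 units in the adult. The stages were ordered by age and did not overlap. Dab2 was 1.44-fold lower at E19 than in the adult (log2 -0.52, SE 0.08, 95% interval -0.73 to -0.32, adjusted p = 0.00471), and 1.24-fold lower at P2 (log2 -0.31, adjusted p = 0.0285). P2 and E19 were not told apart (log2 0.21, adjusted p = 0.169, limma). The E19 call held whichever array was left out (log2 -0.54 to -0.51), while the P2 call was lost whichever array was left out (log2 -0.34 to -0.28) and under quantile normalization (log2 -0.20, adjusted p = 0.0958).

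Fcgrt, the neonatal Fc receptor, was highest at P2. It had 1804 and 1715 units at E19, 2417 and 2362 units at P2, and 1912 and 1927 units in the adult. The P2 pools stood above the other 4. At P2 it was 1.24-fold higher than in the adult (log2 0.32, SE 0.08, adjusted p = 0.0273) and 1.36-fold higher than at E19 (log2 0.44, 95% interval 0.23 to 0.65, adjusted p = 0.0449), and E19 did not pass against the adult (log2 -0.13, 95% interval -0.33 to 0.08, adjusted p = 0.242, limma). Both calls were lost when any array was left out (log2 0.30 to 0.33 and 0.40 to 0.48). Between P2 and E19 almost no probe set of the array passed without an E19 or P2 pool. Without either adult pool the count of called probe sets in that comparison fell only in part, while the Fcgrt call was lost. With each array centred on its median, Fcgrt did not pass at P2 (log2 0.06, adjusted p = 0.625) and was lower at E19 (log2 -0.40, adjusted p = 0.0168).
Its obligate partner B2m, the beta-2-microglobulin light chain, was lower at both young stages, with 8524 and 8269 units at E19, 11231 and 9689 units at P2 and 15387 and 16023 units in the adult (log2 -0.90 and -0.59, adjusted p = 0.00186 and 0.00857). All 3 tested genes listed as partners of IgG transport, B2m included, were lower at E19 and 2 at P2 (median log2 -0.90 and -0.59). Over all tested genes 25.2% were lower at E19 and 21.8% at P2. Fcer1g, the lower gene at E19 that did not pass at P2, is also a macrophage marker. The macrophage markers summed to 3802 and 3753 units at E19, 6325 and 4866 units at P2 and 8194 and 8132 units in the adult. Those sums do not stand for most of the markers. Of 10 tested against the adult, 2 were higher and 2 lower at E19, and 6 higher and 1 lower at P2. The part of macrophage transcripts in the IgG transport counts was not tested. Fcgr3a, a low-affinity Fc receptor that passed the filter through the adult alone, was under 100 units at both young stages and at least 2.18-fold lower than in the adult. It therefore had to differ, and its lower calls are part of the counts of this list.

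The genes around the receptors were counted by pathway. Each count stands beside the shares over all tested genes, 31.4% higher and 25.2% lower at E19, and 28.8% higher and 21.8% lower at P2. Of 8 other LDL receptor family members tested, 1 was higher and 4 lower at E19, and none higher and 5 lower at P2, with a median log2 difference of -0.42 and -0.78. Sorl1, the sorting receptor, had 729.9 and 605 units at E19, 557 and 488 units at P2, and 3053 and 3225 units in the adult, 4.72-fold and 6.02-fold lower (adjusted p = 0.000267 and 0.000245). Lrp10 was 2.83-fold and 2.10-fold lower at E19 and P2, and the reelin receptor Lrp8 fell by 0.84 and 1.09 on the log2 scale. The lone higher call, Lrp12 at E19, was lost without E19 pool 1 or either adult pool. Reln itself had 3138 and 3295 units at E19, 4399.5 and 3303 units at P2, and 10699.8 and 10332.5 units in the adult, 3.27-fold and 2.76-fold lower. Among 15 ligands of the receptors, Reln included, 5 were higher and 4 lower at E19, and 6 higher and 5 lower at P2 (median log2 -0.03 and -0.16, with genes at their bounds). At each stage 2 of the ligands had a bound in place of a fold change, and 1 was under 100 units both at E19 and in the adult. Rbp4, a higher ligand counted also among the liver proteins, had both adult pools under 100 units and had to differ. With 1 array left out, 3 to 6 ligands were higher at E19, and 0 to 2 of the LDL receptor family were higher at E19 and 0 to 1 at P2. Apoe, a ligand of several family members, exceeded its adult level 2.12-fold at E19 and 2.85-fold at P2. A2m, alpha-2-macroglobulin, a ligand of Lrp1, was 2.40-fold and 1.73-fold lower.

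Genes that serve the receptors inside the cell were counted in the same way. Those of the clathrin coat and of endosomes were called in both directions, as were tested genes at large. Of all tested genes 31.4% were higher and 25.2% lower at E19, and 28.8% were higher and 21.8% lower at P2. Of 12 receptor chaperones and adaptors, none was higher and 6 lower at E19, and 1 higher and 4 lower at P2, with a median log2 difference of -0.17 and -0.10. The lower count at E19 was 2 to 5 and the higher count at P2 was 0 to 1 with 1 array left out. Numb fell by 0.97 and 0.68 on the log2 scale. Of 15 clathrin coat genes, 4 were higher and 6 lower at E19 and 3 higher and 6 lower at P2 (median log2 -0.16 and 0.11), led by the light chain Cltb, with 538 and 586 units at E19, 897 and 903 units at P2 and 2155 and 1984 units in the adult (3.68-fold and 2.30-fold lower). With 1 array left out, the clathrin coat counts were 2 to 4 higher and 4 to 6 lower at E19, and 0 to 2 higher and 3 to 6 lower at P2. Of 22 endosome and recycling genes, 1 had both adult pools under 100 units and passed the filter only through its young stages. Among all 22, 5 were higher and 6 lower at E19 and 4 higher and 4 lower at P2, with a median of -0.10 and -0.001 on the log2 scale. These counts were 3 to 6 higher and 2 to 5 lower at E19, and 2 to 3 higher and 1 to 2 lower at P2, with 1 array left out. Rab11fip1, which ties Rab11 to recycling vesicles, was 1.94-fold higher at E19 (adjusted p = 0.000838).

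Genes of caveolae and of endothelial diaphragms, of other endocytic receptors and of vesicle fusion were counted last. Beside these counts, 31.4% of all tested genes were higher and 25.2% lower at E19, and 28.8% higher and 21.8% lower at P2. All 6 tested caveolar and diaphragm genes were higher at E19 and at P2, and all 6 stayed called whichever array was left out. Their median log2 difference was 1.24 and 1.69, where Ehd2, under 100 units in the adult, is set to its bound. Cav1 had 1910.3 and 1613 units at E19, 1569.5 and 1580.3 units at P2, and 122 and 149 units in the adult, 13.0-fold and 11.6-fold higher. Plvap, the diaphragm protein of fenestrated capillaries and itself an endothelial marker, was 8.16-fold and 6.78-fold higher. Endothelial markers were higher for 10 of 11 genes at both stages, with the sums given among the markers, and their part in the caveolar counts was not tested. Of 9 other endocytic receptors, 4 were higher and 4 lower at each stage, with a median log2 difference of -0.23 and -0.07. With 1 array left out, 2 to 3 were lower at E19. Of the 4 higher, Mrc1, Sorcs2 and Stab1 had both adult pools under 100 units and passed the filter only through the young stages, so that they had to differ. Mrc1, the macrophage mannose receptor, had 794 and 698 units at E19, 964 and 614 units at P2, and 39.7 and 25.7 units in the adult, at least 7.44-fold and 7.70-fold higher. The transferrin receptor Tfrc was 2.07-fold and 1.72-fold lower. Of 8 glycophorin and vesicle fusion genes, 3 were higher and 3 lower at E19 and 3 higher and 1 lower at P2 (median log2 0.04 and 0.31), with 1 to 2 lower at P2 with 1 array left out. Gypc, a membrane glycoprotein, was 2.34-fold and 2.51-fold higher.

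**Figure D4:**
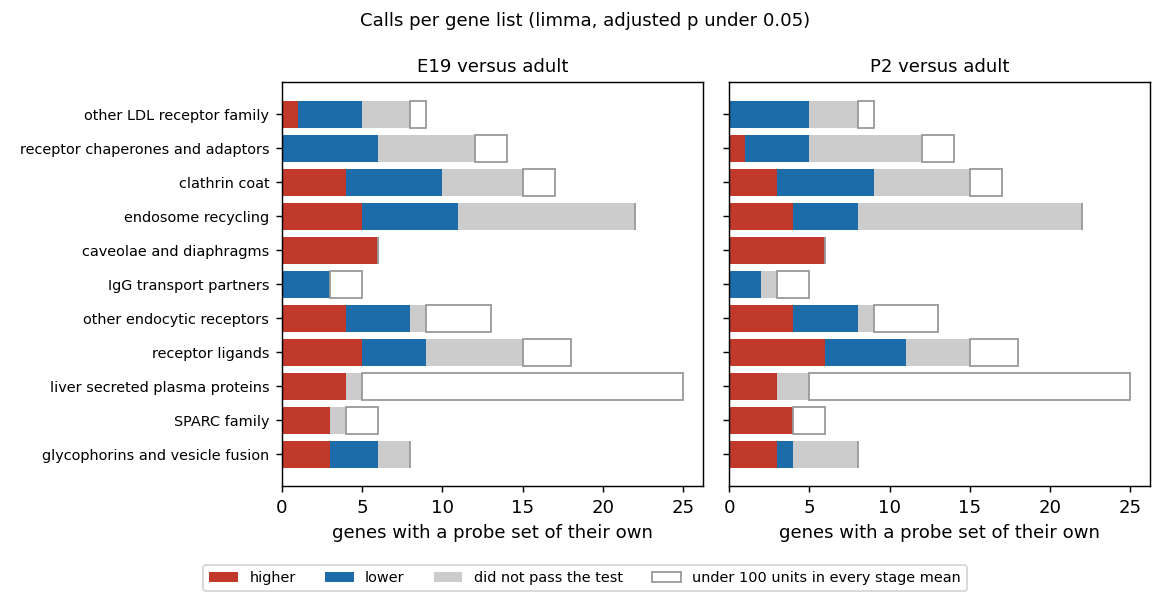
Number of genes with a probe set of their own (horizontal) in each of 11 pathway lists (rows) that were higher, lower, did not pass or stayed under 100 units in every stage mean, for E19 versus adult and P2 versus adult. All 6 caveolar genes were higher at both stages, and 20 of 25 liver-secreted genes had every stage mean under 100 units.

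The genes nearest to each member in profile were found over the 6 arrays among 10333 other tested genes, by the root mean square difference of log2 values centred on each gene's own mean. Sparc was closest to Pa2g4 (0.07), Thumpd2 (0.07) and Tmem234 (0.10), and Lrp1 to Dtx1 (0.17), Trim16 (0.19) and Tmem116 (0.19). Lrp2 was closest to Cnih2 (0.20), Pygl (0.20) and Cyp1b1 (0.21). These neighbours of Lrp2 had both adult pools under 100 units, and Trim16 and Tmem116 had all E19 and P2 pools under it. Their distances rest in part on values under background. Vldlr was closest to Rnf44 (0.03), Ccdc115 (0.05) and Nfyb (0.06), Dab2 to Hibadh (0.02), Tmed4 (0.02) and Clptm1l (0.03), and Fcgrt to Zfp18 (0.03), Fbxo4 (0.04) and Gltp (0.04). Distances of different members are not comparable, since they depend on how far a member itself varied.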

How the data were processed

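Total RNA of 2 pools of lateral ventricular choroid plexuses per stage was measured on Affymetrix Rat 230 2.0 arrays. The authors computed the deposited values, linear signal intensity, from the scans by the MAS5 algorithm in Affymetrix Expression Console (versions not given in the sources used here), which scales each array to a common trimmed mean. The members and the gene lists were chosen with earlier results of these data known, and the named genes are the members, genes that act with them, and at most 3 genes of largest difference per direction in a list.

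Of 31099 probe sets, 57 controls were left out. Gene symbols came from the platform annotation, updated through gene numbers to the RefSeq table of GRCr8: 20826 probe sets had 1 gene, 436 several and 9780 none. The 17808 probe sets whose mean reached 100 units in 1 stage or more were kept. Their log2 intensities on all 6 arrays entered a limma fit (version 3.58.1, R 4.3.3) of 1 mean per stage, with 3 residual and 2.15 prior degrees of freedom. Adjusted p-values are Benjamini-Hochberg over all tested probe sets, and fold changes against a stage with both arrays under 100 units are bounds against 100 units. All errors of differences are standard errors or 95% intervals of this fit. The number of arrays limits the precision. On simulated data of 17808 probe sets for E19 versus adult, the share of changes recovered was 8% at 1.5-fold, 56% at 2-fold, 86% at 4-fold and 92% at 8-fold, and 3.97% of 126 calls were false. Changes were planted in only a small part of these probe sets, whereas 9732 were called in the data. The adjusted threshold was therefore stricter in the simulation, and these shares are not the power of the tests reported here. Promoter sequences came from RefSeq (all 10 members matched). Alternatives changed the filter, scaling, floor, spread, threshold, probe set choice and arrays used, added the replicate number as a block, and dropped the arrays singly, the remaining array of that stage being assumed as variable as the others.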

Additional observations from a re-analysis of the deposited data

Results flagged for a closer look

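For 2 members the difference from the adult itself differed between E19 and P2, by the direct test of P2 against E19. Lrp2 was 2.87 above the adult at E19 and 1.58 above it at P2 on the log2 scale, and the difference between P2 and E19 was -1.29 (adjusted p = 0.0362, limma), with both P2 pools under both E19 pools. Fcgrt was -0.13 from the adult at E19 and 0.32 from it at P2, and P2 minus E19 was 0.44 (adjusted p = 0.0449, limma), with both P2 pools above both E19 pools. Both calls ended when any array was left out, as given in the report, and without an E19 or P2 pool almost no probe set passed this comparison. Without either adult pool the count of called probe sets fell only in part, while both calls were lost. With 2 pools per stage, no test for outlying pools was made.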

How the results depend on the processing

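Of the results of single members under the alternatives, 228 kept their direction and side of the threshold, 58 no longer passed, 19 passed newly, and 1 changed sign (Lrp1, P2 minus E19, 0.10 without P2 pool 2, within a range of -0.98 to 0.10 over the arrays left out). For E19 against the adult, the count of called probe sets, 9732, was 6057 at an adjusted p under 0.01 and 6465 to 9392 with 1 array left out. The 3 members called were 5 with each array centred on its median and 2 to 3 with 1 array left out. For P2 against the adult, the 8765 probe sets called were 5626 with no filter, 4926 at an adjusted p under 0.01 and 6432 to 7434 with 1 array left out. The 4 members called were 1 with no filter, 2 with only the stages compared in the fit, 2 with the replicate block, 1 at an adjusted p under 0.01 and 1 to 2 with 1 array left out. For P2 against E19, the 1269 probe sets called were 0 with no filter (4879 at an unadjusted p under 0.05, limma), 2287 with values under 100 units set to 100, 2168 with 50 units added, 2696 with an intensity trend in the spread, 121 with the replicate block, 577 with the mean of all probe sets of a gene, 0 at an adjusted p under 0.01 (4954 at an unadjusted p under 0.05, limma) and 0 to 1094 with 1 array left out. The 2 members called were 0 with no filter, with only the stages compared, with the replicate block or at an adjusted p under 0.01 (3, 3, 3 and 4 at an unadjusted p under 0.05, limma), 1 with median centring or the mean of all probe sets, 4 with the intensity trend, and 0 with any 1 array left out (2 to 4 at an unadjusted p under 0.05, limma).

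Centring each array on its median moved the median log2 difference of all probe sets by -0.28 at E19 and -0.26 at P2. The share of called probe sets that were higher was then 33.8% at E19 and 33.3% at P2, against 55.7% and 55.6%. Under it Vldlr (log2 -0.49), Fcgrt (-0.40) and Lrp1 (-1.32) were called lower at E19, Sparc at E19 (0.53, adjusted p = 0.135) and Fcgrt at P2 (0.06, adjusted p = 0.625) were not called, and Lrp2 and Dab2 kept their calls against the adult. Dab2 at P2 was not called under quantile normalization (log2 -0.20, adjusted p = 0.0958). The replicate numbers did not pair the pools: the pool differences of stages correlated at -0.06, -0.04 and 0.01 across probe sets. Differences under 2-fold that did not pass may lie within what 2 pools per stage can show. The cause of these changes was not tested.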
